A study of Mus musculus with 2 samples.

Results

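The 44 genes described here are transcribed when a cell copies its DNA or divides. They were chosen by name, but with earlier results of these data known, and all 44 were found among the 27998 genes of the count tables. By their known time of use they were split into 16 S-phase members, 24 G2/M members and 4 members that are used in both phases. The cells were CD45+ cells sorted from subcutaneous tumours of C57BL/6J mice aged 6 to 8 weeks. There was 1 library from wild-type (WT) mice and 1 from CD94-KO mice, which lack CD94, and each came from 5 mice with tumours whose cells were pooled. Klrd1 is the gene of CD94, a subunit of the NKG2 receptors found on NK cells and on some T cells. The kind of tumour and the way the gene was disrupted were not given in the sources used here. With 1 library per group there is no replicate of either genotype, so no difference below was tested and every interval covers counting error only.

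A dividing cell first licenses its replication origins with the MCM helicase ring (Mcm2 to Mcm7, loaded with the help of Cdc6), and activates the ring by adding Cdc45 and the GINS complex (Gins2). Nucleotides are supplied by ribonucleotide reductase (Rrm1, Rrm2), thymidylate synthase (Tyms), thymidine kinase (Tk1) and dUTPase (Dut), and Pcna is the sliding clamp that holds the polymerase on DNA. Entry into mitosis is driven by Cdk1 with cyclins A2 (Ccna2), B1 (Ccnb1) and B2 (Ccnb2), and exit by the anaphase-promoting complex with Cdc20 and the ubiquitin-conjugating enzyme Ube2c. S-phase genes are known targets of E2F factors, and G2/M genes are known to be regulated by the DREAM and MYB-MuvB complexes, which bind short promoter elements named cell cycle homology regions.

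Such elements were looked for in the promoters, and 8 promoters are shown as examples: 4 of G2/M members, then 4 of S-phase members. Cenpa and Pcna are among the members of their lists whose counts were spread over many cells. Each line gives the 160 bases before the annotated start, 5′ to 3′ on the gene's strand, from the RefSeq annotation of GRCm38.p6. Capitals mark TTTGAA and TTTAAA (2 forms of the cell cycle homology region), CCAAT, and 6 forms of 8 bases taken here for E2F (TTTGGCGC, TTTCGCGC, TTTCCCGC, TTTGCCGC, TTTGGCGG and TTCCCGCC), each on either strand. Neighbouring matches can overlap and then appear as 1 longer run of capitals.
Cdk1, chr10:69352913-69353072, minus strand: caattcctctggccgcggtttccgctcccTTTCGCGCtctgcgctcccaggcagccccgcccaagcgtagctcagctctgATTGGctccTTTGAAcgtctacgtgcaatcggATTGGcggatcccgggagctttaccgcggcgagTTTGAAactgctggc
Ccnb1, chr13:100786487-100786646, minus strand: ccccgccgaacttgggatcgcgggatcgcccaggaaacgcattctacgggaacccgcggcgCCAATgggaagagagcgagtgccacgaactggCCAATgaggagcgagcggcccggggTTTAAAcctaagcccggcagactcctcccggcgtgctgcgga
Ube2c, chr2:164769769-164769928, plus strand: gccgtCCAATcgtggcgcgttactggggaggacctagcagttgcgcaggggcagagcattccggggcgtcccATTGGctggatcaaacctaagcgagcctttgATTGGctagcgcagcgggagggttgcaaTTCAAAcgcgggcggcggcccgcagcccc
Cenpa, chr5:30666726-30666885, plus strand: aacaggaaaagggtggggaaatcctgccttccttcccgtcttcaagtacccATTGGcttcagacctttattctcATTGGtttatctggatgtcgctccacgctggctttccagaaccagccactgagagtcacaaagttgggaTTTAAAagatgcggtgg
Mcm5, chr8:75109349-75109508, plus strand: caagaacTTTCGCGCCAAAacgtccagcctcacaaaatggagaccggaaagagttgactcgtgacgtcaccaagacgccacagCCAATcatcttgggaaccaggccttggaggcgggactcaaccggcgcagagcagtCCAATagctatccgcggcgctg
Mcm6, chr1:128359706-128359865, minus strand: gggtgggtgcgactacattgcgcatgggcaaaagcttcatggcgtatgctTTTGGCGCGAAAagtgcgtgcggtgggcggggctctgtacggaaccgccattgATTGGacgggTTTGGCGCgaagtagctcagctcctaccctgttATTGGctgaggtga
Rrm1, chr7:102441535-102441694, plus strand: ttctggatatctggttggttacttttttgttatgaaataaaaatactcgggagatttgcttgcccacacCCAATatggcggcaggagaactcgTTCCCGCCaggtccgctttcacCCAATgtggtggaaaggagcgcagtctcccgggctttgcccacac
Pcna, chr2:132253181-132253340, minus strand: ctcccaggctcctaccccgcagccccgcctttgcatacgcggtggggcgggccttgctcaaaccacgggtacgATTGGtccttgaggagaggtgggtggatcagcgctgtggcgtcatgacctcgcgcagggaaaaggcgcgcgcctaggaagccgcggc

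In Cdk1 the TTTGAA nearest the start began 15 bases before it, and in Ccnb1 the TTTAAA began 42 bases before it. In Mcm5 the E2F form TTTCGCGC began 153 bases before the start and overlapped TTTGGCGC on the other strand. The bases shown for Pcna held a CCAAT and no other marked form. Over the whole windows of 300 bases (250 before and 50 after the start, both strands, any annotated start), 38 of the 44 members had an entry. TTTGAA was found in 16 of 21 G2/M members, 2 of 14 S-phase members and 20.2% of 27025 genes. TTTAAA, which reads the same on both strands, was found in 7 of the 21 G2/M members, 4 of the 14 S-phase members and 14.9% of all genes. CCAAT was found in 19 of 21 G2/M members, 10 of 14 S-phase members and 41.1% of all genes. An E2F form was found in 7 of 14 S-phase members, 1 of 21 G2/M members (Cdk1) and 4.97% of all genes. TTTGAA was thus seen mostly in the G2/M list, and the E2F forms mostly in the S-phase list. A match is a description of the sequence and not a binding site. Aurkb, Ccna2, Tpx2, Gins2, Mcm4 and Stmn1 had no entry.

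The kept cells were 4388 in the WT and 4574 in the CD94-KO library, with 36482364 and 42210515 UMIs (unique molecular identifiers, which count RNA molecules) and medians of 4768.5 and 7799 UMIs per cell. The libraries shared 8 cell barcodes, 4 of them among kept cells. Klrd1 itself had 142 CPM (its counts scaled to 1e6 UMIs of the cells summed) in the WT and 78.8 in the CD94-KO library, and 658 and 310 CPM in NK cells. The deleted part of the gene was not given, so 3′ tags of Klrd1 in the CD94-KO library neither support nor go against its label. Cells were gated on raw UMIs of marker genes: at least 3 UMIs from at least 2 markers of a class and at least 2 times those of any other class. The NK gate used Ncr1, Klrb1c, Klre1, Klri2 and Eomes, and not Klrd1. This gave 367 WT and 509 CD94-KO NK cells, 384 and 318 T cells, 1138 and 2117 monocyte/macrophage cells, 206 and 290 conventional dendritic cells (DCs), 49 and 31 plasmacytoid DCs (pDCs), and 11 and 47 neutrophils. Genes outside the gates were highest in the class they mark, with some in other gates: Gzma had 4750 and 5642 CPM in NK cells and 389 and 141 in T cells, and Lyz2 had 9254 and 8463 CPM in monocyte/macrophage cells and 270 and 222 in NK cells. Although the sort took CD45+ cells, another 108 and 57 cells passed a gate on collagens and Pdgfrb, and their Ptprc, the gene of CD45, was at 11.0 and 16.1 CPM against 1233 and 1695 in NK cells. Their median depth was 50739.5 and 42354 UMIs. A further 302 and 378 cells matched more than 1 class, and 1806 and 775, with median depths of 760 and 1222 UMIs, passed no gate.

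Over all kept cells the members were lower in the CD94-KO library, in nearly every gene. The 16 S-phase members summed to 576 CPM in the WT and 353 CPM in the CD94-KO library, a ratio of 0.612 (95% interval 0.600 to 0.625). The 24 G2/M members summed to 737 and 389 CPM, a ratio of 0.528 (0.518 to 0.539). By size, at least 1.5-fold with at least 20 UMIs over both libraries, 23 of 24 G2/M members and 14 of 16 S-phase members were lower and none was higher. Of all 13589 genes with that many UMIs, 13.2% were lower and 4.81% higher by the same rule. Measured as log2(CPM + 5), the median of the members' differences (CD94-KO minus WT) was -0.73 for the G2/M and -0.69 for the S-phase members, and -0.025 over all genes. The lowest ratios were those of Ube2c (84.2 against 28.6 CPM, ratio 0.339), the mitotic kinase Aurkb (0.377), Rrm2 (0.404) and Cdk1 (29.3 against 12.1 CPM, ratio 0.414). Mki67, the common marker of cycling cells, had 52.9 and 31.6 CPM, and Top2a, the topoisomerase that untangles chromosomes, 115 and 54.7 CPM. Ccnb1 had 10.53 and 4.738 CPM, Cenpf 46.0 and 23.3, Tyms 28.5 and 13.6, and Mcm5 33.9 and 14.9. The members of these lists that did not pass the size rule were Pcna (106.5 and 105.5 CPM, ratio 0.990, 0.949 to 1.03), the S-phase helicase subunit Mcm4 (0.776) and Cenpa, the histone of centromeres (85.0 and 78.8 CPM, ratio 0.926).

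The collagen-gated cells held a large part of both lists, and a larger part in the WT library. They carried 41.9% of the S-phase UMIs and 58.0% of the G2/M UMIs of the WT library, and 24.6% and 42.6% of those of the CD94-KO library. They were 108 of 4388 and 57 of 4574 kept cells, but deep ones. Of the UMIs of all genes they held 5724597 of 36482364 in the WT and 2616833 of 42210515 in the CD94-KO library. Without them the S-phase ratio was 0.714 (0.696 to 0.733) and the G2/M ratio 0.649 (0.631 to 0.667). Over gated immune cells alone the ratios were 0.748 (0.726 to 0.770) and 0.770 (0.744 to 0.798). The mix of immune classes also differed between the libraries. Monocyte/macrophage cells, which were low in both lists, held 14272658 of the 23900239 WT and 23512676 of the 33781859 CD94-KO UMIs of gated immune cells. The part of this mix in the ratios was not tested, and ratios within classes are given below. The size rule without the collagen-gated cells counted 17 of 24 G2/M and 11 of 16 S-phase members lower and none higher, where 8.47% of all 13066 genes with enough UMIs were lower and 3.7% higher.

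Among the 7 classes plotted, the lists were highest in the collagen-gated cells, then in NK and T cells, and lowest in monocyte/macrophage cells, pDCs and neutrophils, the last being cells that do not divide. The S-phase sum was 1538 CPM in WT collagen-gated cells and 1399 in CD94-KO ones, 752 and 643 in NK cells, 675 and 588 in T cells, 280 and 283 in conventional DCs, 218 and 180 in monocyte/macrophage cells, and 182 and 135 in pDCs. The G2/M sum was 2724 and 2677 CPM in collagen-gated cells, 544 and 428 in NK cells, 395 and 432 in T cells, 193 and 277 in conventional DCs, 168 and 126 in monocyte/macrophage cells, and 115 and 129 in pDCs. Other classes did not keep this order: the 13 WT B cells had 784 CPM of the S-phase list, the 4 WT mast/basophil cells 108 CPM, and WT cells that matched more than 1 class 875 CPM of the G2/M list. Without the 1 cell with most UMIs of the list, the WT B cells had 302.5 CPM, below NK and T cells. The WT cells that matched more than 1 class had 686 CPM of the G2/M list without their top cell. Neutrophils, from 8 and 22 S-phase UMIs, had 167 CPM (72.1 to 329) and 168 CPM (105 to 254), and from 3 and 7 G2/M UMIs 62.6 CPM (12.9 to 183) and 53.3 CPM (21.5 to 110). For the S-phase list the neutrophil intervals cover the monocyte/macrophage levels, so those levels cannot be told from the neutrophil level. For the G2/M list the same holds in the WT library but not in the CD94-KO library. Pcna gave 6 of the 8 WT and 12 of the 22 CD94-KO S-phase UMIs of neutrophils.

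**Figure D1:**
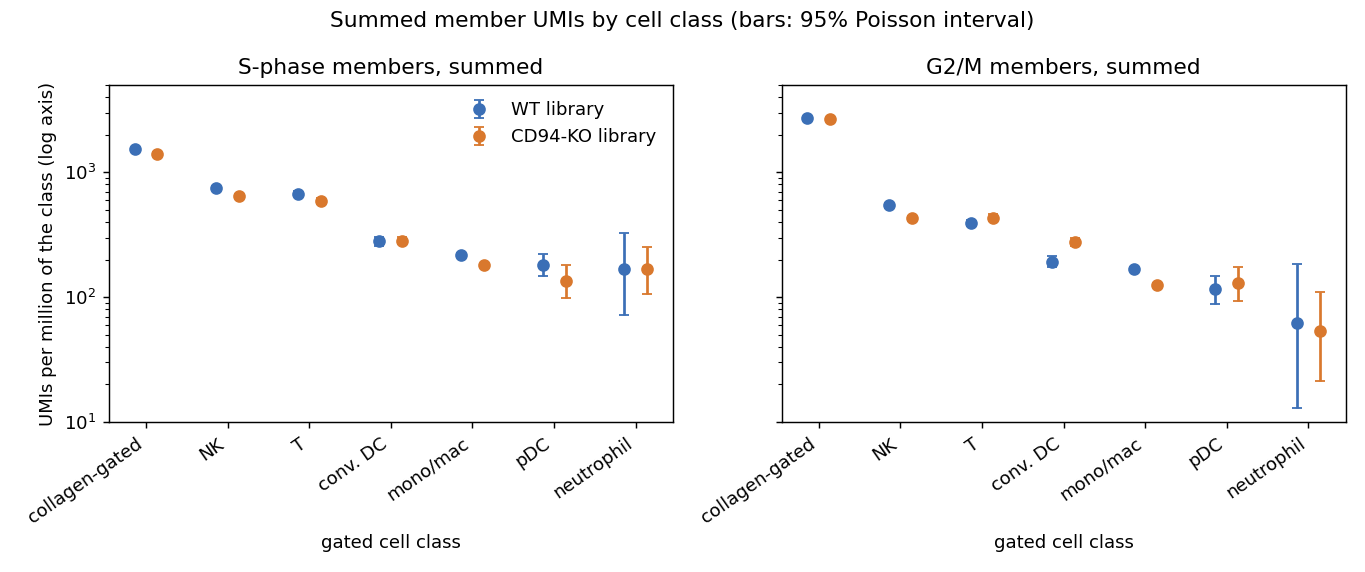
Summed UMIs of the S-phase members (left) and G2/M members (right) as CPM of each gated class, on a log axis, for the WT (blue) and CD94-KO (orange) library; vertical lines are 95% Poisson intervals. Collagen-gated cells lie highest in both panels (1538 and 1399 CPM, and 2724 and 2677 CPM), and neutrophils have the widest intervals.

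In NK cells most members were lower in the CD94-KO library, by less than over all cells. The S-phase sum was 752 against 643 CPM, a ratio of 0.855 (0.809 to 0.903), and the G2/M sum 544 against 428 CPM, a ratio of 0.785 (0.735 to 0.839). By the size rule 8 of 23 G2/M and 5 of 16 S-phase members were lower and none was higher, where 3.38% of 9469 genes were lower and 11.2% higher in NK cells. The bulk of genes also lay higher in the CD94-KO NK cells, by a TMM factor of 0.12 on the log2 scale. With the bulk set equal, the S-phase and G2/M ratios were 0.786 and 0.722. The median log2 difference was -0.28 over the G2/M and -0.17 over the S-phase members, and 0.10 over all genes.

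Ube2c, Cdc20, Nusap1 and Tk1 had the lowest ratios in NK cells. Ube2c had 98 UMIs in 25 of 367 WT cells and 44 UMIs in 20 of 509 CD94-KO cells, or 28.5 against 11.0 CPM, a ratio of 0.386 (0.264 to 0.556). A single WT cell held 29 of its 98 UMIs. The 10 NK cells with most UMIs of the list held 57.4% of the WT and 54.7% of the CD94-KO G2/M UMIs, and 33.8% and 31.4% of the S-phase UMIs. Cdc20 followed at 8.44 and 3.75 CPM (0.445, 0.222 to 0.857), then the spindle protein Nusap1 at 22.7 and 11.5 CPM (0.507, 0.344 to 0.739) and Tk1 at 24.5 and 13.0 CPM (0.532, 0.369 to 0.761). Tyms was at 46.6 and 26.8 CPM (0.575, 0.446 to 0.739) and Cdk1 at 21.8 and 12.3 CPM (0.562, 0.384 to 0.816).

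Other NK members differed less, or not beyond counting error. Mki67 had 162 UMIs in 41 WT cells and 199 in 33 CD94-KO cells, 47.2 and 49.8 CPM, a ratio of 1.06 (0.854 to 1.31). Top2a was at 82.4 and 64.6 CPM (0.784, 0.660 to 0.931), Cenpf at 13.4 and 8.51 (0.636, 0.396 to 1.01), and Rrm2 at 25.6 and 22.5 (0.879, 0.648 to 1.19). The MCM genes were not uniform: Mcm5 and Mcm7 had ratios of 0.667 (0.532 to 0.835) and 0.666 (0.524 to 0.845), while Mcm2, Mcm3, Mcm4 and Mcm6 had 1.08, 0.865, 1.18 and 1.03, each with an interval that includes 1. Pcna was at 124.9 and 130.7 CPM (1.05, 0.919 to 1.19). Differences between members were not tested. Ccnb1 had 10 and 12 UMIs in all (1.03, 0.409 to 2.67).

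In T cells the S-phase list was lower in the CD94-KO library, and the G2/M list was near level. The S-phase sum was 675 against 588 CPM, a ratio of 0.871 (0.813 to 0.933), and the G2/M sum 395 against 432 CPM, a ratio of 1.09 (1.005 to 1.189). Without the 1 cell with most G2/M UMIs in each library, that ratio was 1.08 (0.992 to 1.18), and without Cenpa it was 1.04 (0.936 to 1.15). Of the 19 G2/M members with enough UMIs, 10 had ratios above 1 and 9 below, with a median log2 difference of 0.008. The T gate held more myeloid RNA in the WT library, with Lyz2 at 976.5 and 462.7 CPM and C1qa at 55.0 and 37.4 CPM, and its part in these ratios was not tested. By the size rule 4 of 19 G2/M members were higher and 2 lower, and 3 of 16 S-phase members lower and none higher, where 9.13% of 9325 genes were higher and 6.82% lower in T cells. The S-phase UMIs per G2/M UMI were 1.71 in the WT and 1.36 in the CD94-KO library, and 1.381 and 1.504 in NK cells. Cenpf, a kinetochore protein, was highest in ratio at 3.07 and 9.25 CPM (3.01, 1.36 to 7.16), from 10 and 21 UMIs. Kif23, a kinesin of cell separation, was at 10.8 and 19.4 CPM (1.80, 1.13 to 2.89), Cks1b, a small partner of cyclin-dependent kinases, at 21.5 and 32.6 (1.52, 1.08 to 2.13) and Mcm3 at 34.1 and 46.7 (1.37, 1.04 to 1.80). Aurkb at 7.68 and 3.08 CPM (0.401, 0.147 to 0.954), Ccna2 at 9.21 and 3.96 (0.430, 0.180 to 0.929), Tyms at 35.02 and 20.69 (0.591, 0.411 to 0.837) and Tk1 at 22.4 and 14.1 (0.628, 0.401 to 0.964) were lowest. Mki67 was at 41.2 and 37.4 CPM (0.909, 0.684 to 1.20) and Top2a at 67.0 and 59.0 (0.881, 0.705 to 1.10). Cdk1 was at 12.3 and 10.1 CPM, Rrm2 at 20.3 and 13.2, Mcm5 at 44.2 and 35.2 and Pcna at 128 and 131, all with intervals of the ratio that include 1. Ccnb1 had 5 UMIs in each library.

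The T subsets differed from each other in both size and direction, on few cells. CD8 T cells, 65 in the WT and 43 in the CD94-KO library, held the highest S-phase sum of the T subsets, 1170 against 773 CPM (ratio 0.661, 0.583 to 0.748). Their G2/M sum was 563 and 651 CPM (1.15, 0.995 to 1.34), and its members went both ways. Top2a (107 and 44.5 CPM, 0.417, 0.243 to 0.683), Cdk1 and Nusap1 had intervals below 1. Ccnb2 (17.8 and 55.7 CPM, 3.13, 1.59 to 6.39), Ube2c, Birc5 and Cdca8 had intervals above 1. In CD4 T cells, 72 and 53 cells, the G2/M sum was 298 and 619 CPM (2.08, 1.71 to 2.54), and the 2 CD94-KO cells with most G2/M UMIs held 94 and 53 of the 225. Without the top cell of each library the ratio was 1.73 (1.35 to 2.21). That ratio still includes the second cell, with 53 of the 131 CD94-KO UMIs left, and no ratio was made without both cells. In Tregs, 72 and 29 cells, the S-phase and G2/M ratios were 0.660 (0.519 to 0.831) and 0.507 (0.370 to 0.681), and Top2a had 48 UMIs in the WT and 0 in the CD94-KO library, which held 51 G2/M UMIs in all. Gamma-delta T cells, 57 and 111, had S-phase sums of 319 and 309 CPM (0.969, 0.759 to 1.24) and G2/M sums of 331 and 252 CPM (0.760, 0.591 to 0.981). The mix of subsets in the T gate thus differed between the libraries, and its part in the ratios of all T cells was not tested.

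In monocyte/macrophage cells, the class with most cells, both lists were low and most members were lower in the CD94-KO library. The S-phase sum was 218 against 180 CPM, a ratio of 0.826 (0.788 to 0.865), and the G2/M sum 168 against 126 CPM, a ratio of 0.751 (0.711 to 0.793). By the size rule 12 of 24 G2/M and 9 of 16 S-phase members were lower and none was higher, where 7.46% of 11467 genes were lower and 3.21% higher. The lowest ratios were those of Plk1, the polo kinase of mitotic entry, at 1.40 and 0.340 CPM (0.243, 0.0925 to 0.576, from 20 and 8 UMIs), Nusap1 at 2.03 and 0.638 (0.314, 0.156 to 0.605), Rrm2 at 3.22 and 1.15 (0.356, 0.213 to 0.585) and Cdca3, a trigger of mitotic entry, at 5.82 and 2.59 (0.446, 0.315 to 0.628). Mcm5 was at 10.2 and 4.64 CPM (0.456, 0.353 to 0.589), Tyms at 8.20 and 4.38 (0.534, 0.406 to 0.702), Cdk1 at 5.96 and 3.32 (0.557, 0.404 to 0.767), Top2a at 15.5 and 9.14 (0.591, 0.487 to 0.716), Cenpf at 4.48 and 2.64 (0.588, 0.408 to 0.847) and Mki67 at 14.9 and 10.1 (0.675, 0.559 to 0.817). Ccnb1 had 13 and 21 UMIs (0.981, 0.469 to 2.13).

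Pcna alone was higher in monocyte/macrophage cells with an interval above 1, at 92.6 and 99.5 CPM (1.074, 1.004 to 1.15). It made up 1322 of the 3115 WT and 2339 of the 4236 CD94-KO S-phase UMIs of the class. Without Pcna and Dut the S-phase ratio was 0.644 (0.601 to 0.690), and without Cenpa the G2/M ratio was 0.644 (0.601 to 0.690). A few cells mattered here too: without the 10 cells with most UMIs of a list in each library, the ratios were 0.895 and 0.884.

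Conventional DCs show how far 1 cell can carry a sum. Their G2/M sum was 193 CPM in the WT and 277 in the CD94-KO library, a ratio of 1.44 (1.28 to 1.62). A single CD94-KO cell, gated among the Ccr7 and Fscn1 DCs (mregDCs) and with 135400 UMIs in all, held 416 of the 904 G2/M UMIs and 292 of the 924 S-phase UMIs. Without the top cell of each library the G2/M ratio was 0.978 (0.850 to 1.13) and the S-phase ratio 0.880 (0.781 to 0.992). In mregDCs alone the G2/M ratio was 2.76 with and 0.957 (0.754 to 1.22) without it. Whether that barcode held more than 1 cell was not tested beyond the doublet score, which kept it.

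In the collagen-gated cells none of the 44 members differed by 1.5-fold, where 9.59% of 10372 genes were higher and 4.1% lower. The S-phase ratio was 0.910 (0.876 to 0.946) and the G2/M ratio 0.983 (0.955 to 1.01). Ube2c had the lowest ratio, 374 against 268 CPM (0.717, 0.657 to 0.781), as it did in NK cells and over all cells, and the hyaluronan receptor gene Hmmr the highest, 64.5 against 84.8 CPM (1.32, 1.11 to 1.56). Cenpf was at 213 and 259.5 CPM (1.22, 1.11 to 1.34), Mki67 at 184 and 200 (1.09, 0.976 to 1.21), Cdk1 at 117 and 102 (0.870, 0.752 to 1.004) and Mcm5 at 92.8 and 68.4 (0.737, 0.619 to 0.875). Top2a was at 467.5 and 487.2 CPM (1.04, 0.974 to 1.11), Tyms at 74.1 and 64.6 (0.872, 0.725 to 1.045), Rrm2 at 78.4 and 65.3 (0.833, 0.695 to 0.996), Pcna at 138 and 154 (1.12, 0.990 to 1.26) and Ccnb1 at 47.2 and 39.7 (0.843, 0.666 to 1.06). Of these only Rrm2 had an interval that left out 1. The balance of the lists was unlike that of immune cells: 0.565 and 0.523 S-phase UMIs per G2/M UMI, against 1.43 and 1.39 over gated immune cells. RNA of these cells was scarce in the immune gates: the list of 5 markers, the 4 collagens and Pdgfrb, summed to 1178 and 2322 CPM in them, and to 4.37 and 7.51 CPM in NK, 6.45 and 3.52 in T and 4.48 and 4.76 in monocyte/macrophage cells. Of the 5 markers, 2 in the WT and 1 in the CD94-KO library were at 0 in NK cells, and 1 and 2 in T cells. Their part in the member counts of the immune gates was not tested.

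**Figure D2:**
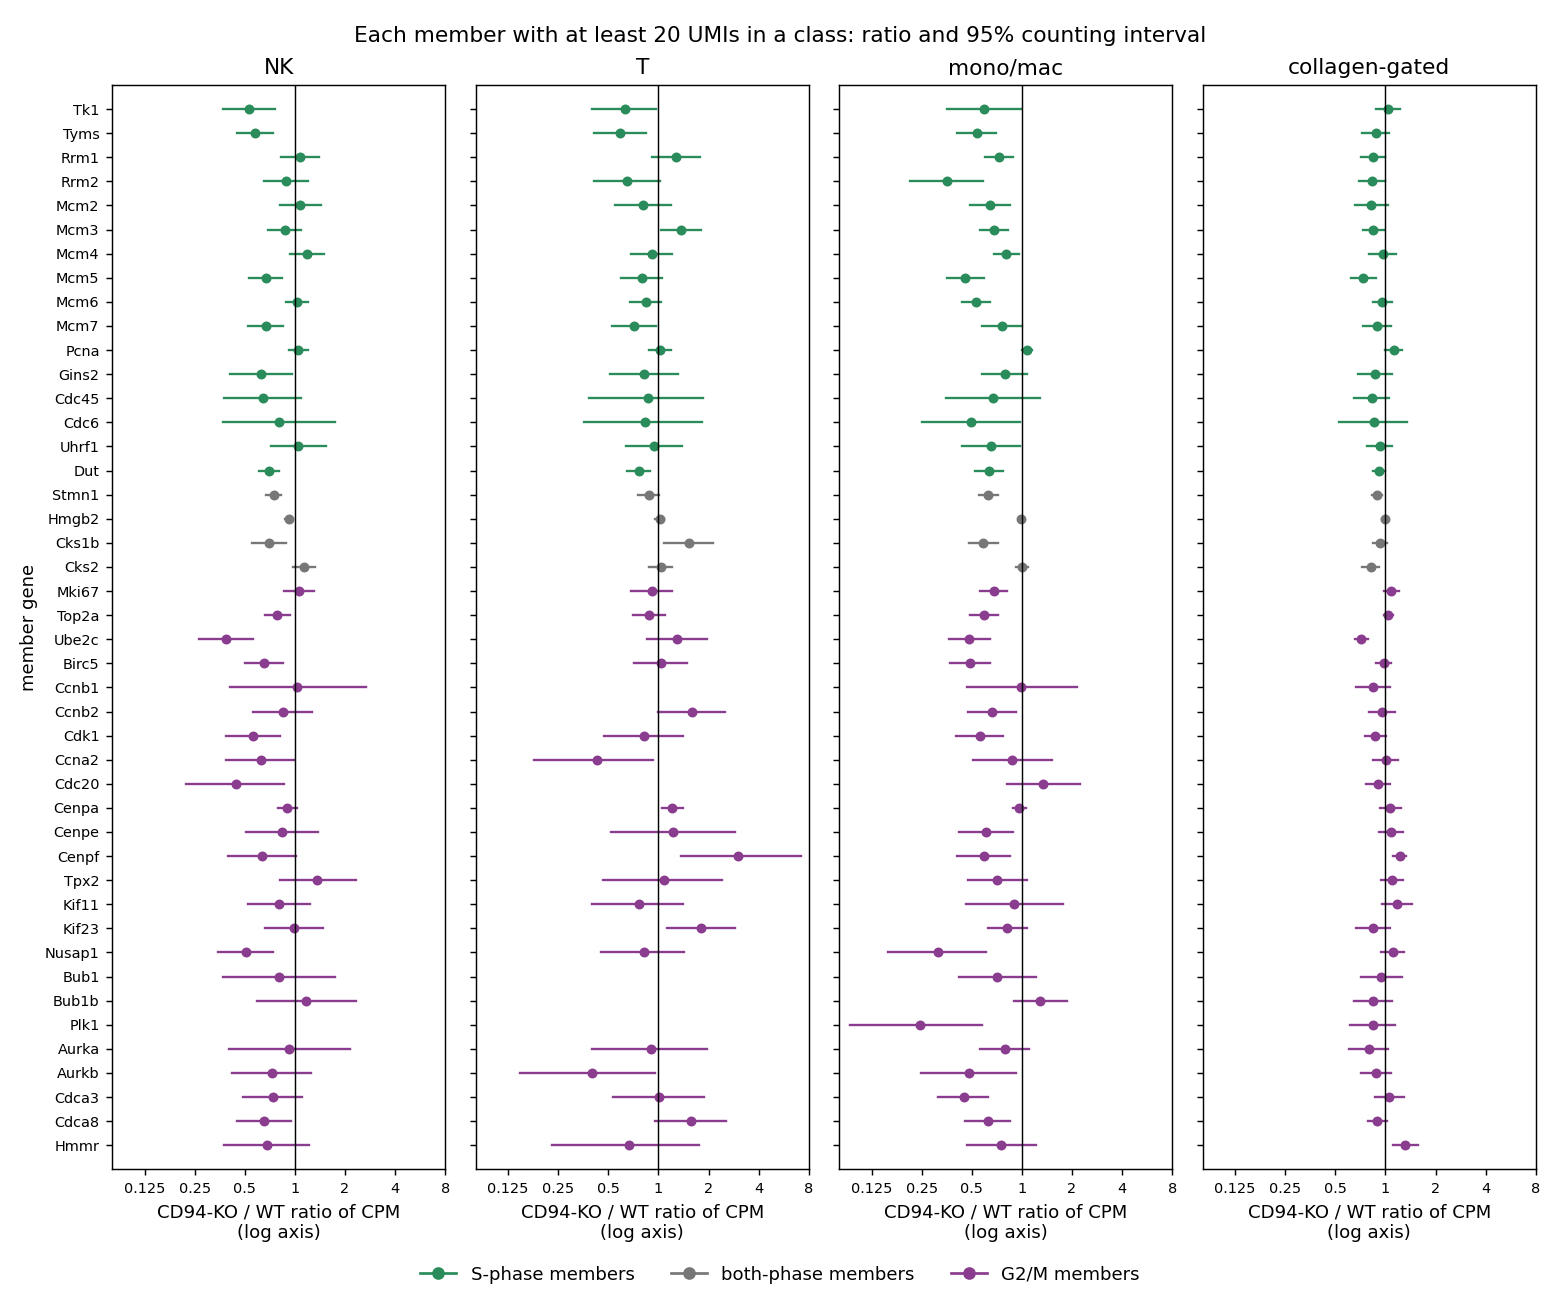
Ratio of CPM, CD94-KO over WT, on a log axis, for each member with at least 20 UMIs over both libraries, in NK, T, monocyte/macrophage and collagen-gated cells; points are ratios, lines 95% counting intervals, and colours the S-phase (green), both-phase (grey) and G2/M (purple) members. Most points lie left of 1 in NK and monocyte/macrophage cells, on both sides of it in T cells and near it in collagen-gated cells.

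Some members were gathered in few cells and others were spread over many. For each one, the UMIs in gated immune cells were counted in the 1% of cells with most UMIs of the other 43 members, 22 WT and 34 CD94-KO cells with 2.87% to 2.92% and 2.82% to 2.93% of all UMIs. Those cells held 65.6% and 72.8% of the UMIs of Nusap1, 63.7% and 72.0% of Rrm2, 60.4% and 56.1% of Aurkb and 42.4% and 49.2% of Mki67. They held 9.271% and 7.599% of the UMIs of Pcna, 7.09% and 7.45% of Cenpa, 7.24% and 6.36% of the kinase partner Cks2, and 8.82% and 8.40% of the mitotic kinase Aurka. A second measure, added after the data were seen, took the 5% of cells with the highest CPM of the other members. Its ranking of cells left out Pcna, Dut, Cenpa and the both-phase members. The order was similar: 83.4% and 78.9% for Nusap1, 80.7% and 75.6% for Rrm2, 17.9% and 13.0% for Pcna and 14.7% and 12.4% for Cenpa. By this second measure the MCM genes lay between, from 20.7% and 25.5% for Mcm4 to 50.1% and 56.3% for Mcm7. In the 1% of cells Mcm4 had 8.09% and 15.4% of its UMIs, in the WT library a smaller share than Pcna. Pcna had a UMI in 182 of 367 WT and 236 of 509 CD94-KO NK cells, and also in 5 of 11 and 10 of 47 neutrophils, at median depths of 7140 and 6130 UMIs in NK cells and 3413 and 2739 in neutrophils. Tyms, Rrm2, Cdk1 and Cenpf had no UMI in any neutrophil, which allows up to 27.3% of WT and 6.38% of CD94-KO neutrophils with a UMI at this depth and sets no limit on cells that express the gene. UMIs of Rrm2 and Nusap1 therefore lay mostly in cells rich in the other members, and those of Pcna and Cenpa mostly outside them.

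**Figure D3:**
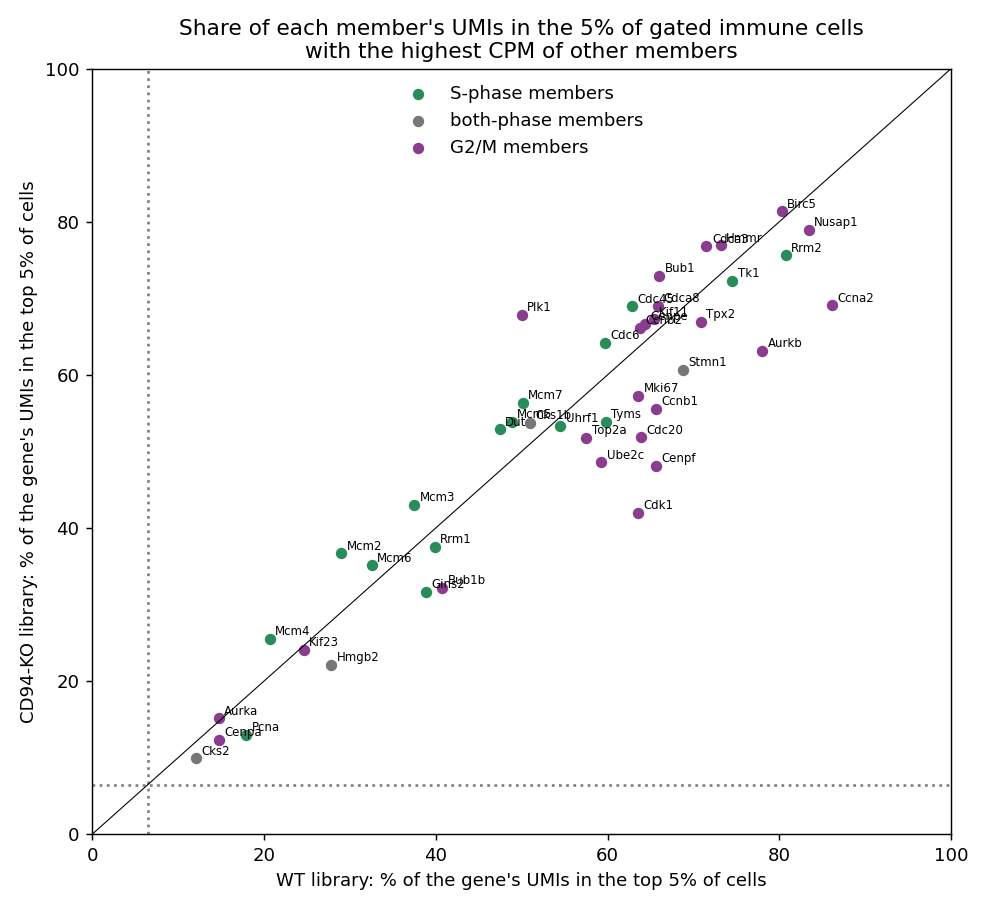
For each member, the percent of its UMIs that lay in the 5% of gated immune cells with the highest CPM of other members (ranked without Pcna, Dut, Cenpa and the both-phase members), in the WT (x axis) and CD94-KO library (y axis); dotted lines give the share of all UMIs in those cells, and the solid line is equality. Cks2, Cenpa, Aurka and Pcna lie at the lower left, closest to the dotted lines, and Birc5, Nusap1 and Rrm2 at the upper right.

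To compare shares of cells at equal depth, each cell was thinned to 1000 UMIs and called positive for a list at 2 or more of its UMIs. That left out 1311 WT and 324 CD94-KO cells with fewer UMIs, nearly all of them cells that passed no gate. In NK cells 31 of 367 (8.45%, 5.81 to 11.8) and 52 of 507 (10.3%, 7.75 to 13.2) were S-phase positive, and 17 (4.63%, 2.72 to 7.31) and 20 (3.94%, 2.43 to 6.03) G2/M positive. In T cells 39 of 377 (10.3%, 7.46 to 13.9) and 27 of 318 (8.49%, 5.67 to 12.1) were S-phase positive, and 27 (7.16%) and 23 (7.23%) G2/M positive. In monocyte/macrophage cells 28 of 1118 (2.504%, 1.67 to 3.60) and 32 of 2105 (1.52%, 1.04 to 2.14) were S-phase positive, and 19 (1.70%) and 33 (1.57%) G2/M positive. The intervals of the libraries overlapped in each of these pairs at 1000 UMIs, and the differences were not tested. Over all kept cells the S-phase shares were 6.76% (5.90 to 7.705) and 4.33% (3.74 to 4.985), with intervals that did not overlap. Without collagen-gated cells they were 5.79% (4.98 to 6.695) and 3.96% (3.39 to 4.59), again without overlap. In gated immune cells the intervals overlapped, at 4.995% (4.11 to 6.005) and 3.55% (2.95 to 4.24). At 2000 UMIs the S-phase shares were 21.2% and 18.6% in NK, 18.6% and 16.2% in T and 8.02% and 5.75% in monocyte/macrophage cells, and the NK difference had the opposite sign. The G2/M shares at 2000 UMIs were 10.7% and 8.62%, 12.5% and 11.4%, and 4.66% and 3.07%, and the T difference had the opposite sign. In neutrophils 0 of 11 and 2 of 47 (4.26%, 0.520 to 14.5) were S-phase positive, and none was G2/M positive. With so few neutrophils the intervals are wide and hold the monocyte/macrophage shares, which at this depth could not be told from the neutrophil level. Without thinning, 63.5% and 60.7% of NK cells, 62.5% and 54.4% of T cells, 47.8% and 46.2% of monocyte/macrophage cells and 9.09% and 14.9% of neutrophils had 2 S-phase UMIs or more.

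Few thinned NK or T cells were positive for both lists. Among NK cells 26 WT and 46 CD94-KO cells had the S-phase list only, 12 and 14 the G2/M list only, and 5 and 6 both. Among T cells these were 29 and 23, 17 and 19, and 10 and 4. In collagen-gated cells, the S-phase list only was found in 18 and 5, the G2/M list only in 24 and 9, and both in 18 and 13 of 108 and 56 cells, so that 55.6% (45.7 to 65.1) and 48.2% (34.7 to 62.0) had at least 1 list. In CD8 T cells 17 of 65 (26.2%, 16.03 to 38.5) and 8 of 43 (18.6%, 8.39 to 33.4) did. These classes are ranges of a count and not cell types: among NK cells 132 WT and 202 CD94-KO cells had 1 or 2 UMIs of both lists together, near the limit.

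**Figure D4:**
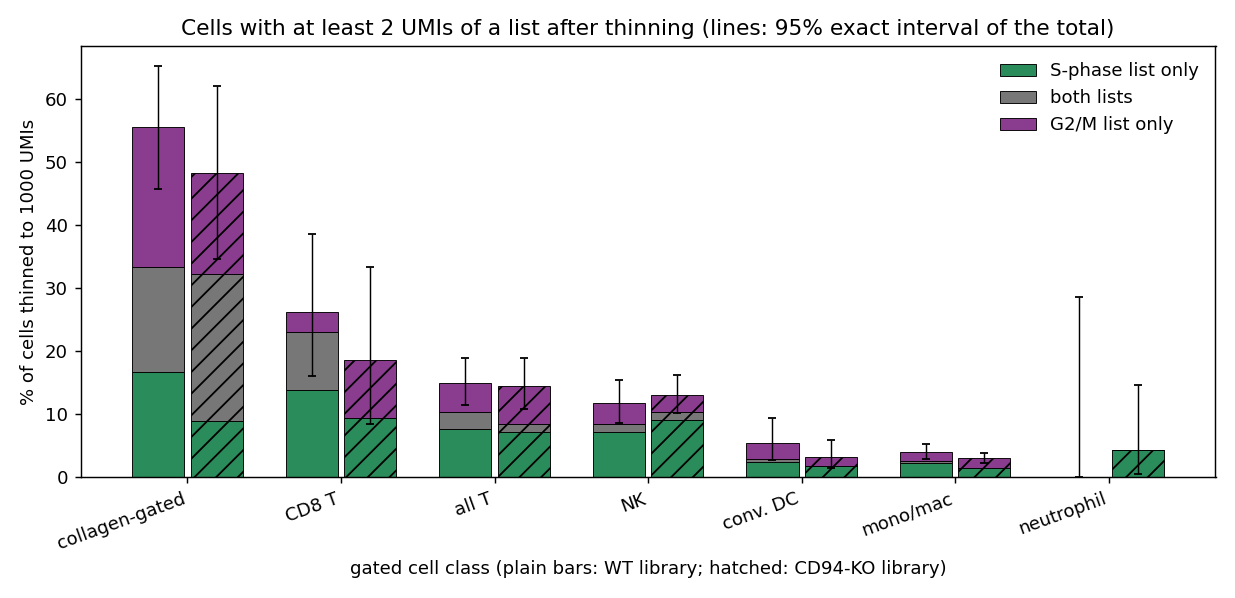
Percent of cells in each gated class with at least 2 UMIs of the S-phase list only (green), of both lists (grey) or of the G2/M list only (purple) after thinning to 1000 UMIs, for the WT (plain bars) and CD94-KO library (hatched bars); lines are 95% exact intervals of the total. The intervals of the libraries overlap in every class shown, and collagen-gated cells stand highest with 55.6% and 48.2%.

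In both libraries the members stood higher in NK cells with the granzyme gene Gzmc than in those without it. NK cells with at least 5 Gzmc UMIs had 1098 CPM (1045 to 1152) of the S-phase list in the WT and 1009 (956 to 1065) in the CD94-KO library, and those with none had 417 (381 to 455) and 458 (429 to 488). The G2/M list stood at 840 and 732 CPM against 248 and 269. Gzmc-positive cells were also deeper, with medians of 14561 and 14195 UMIs against 5808.5 and 5432, and the part of depth was not tested beyond thinning. At 1000 UMIs 18.9% (11.4 to 28.5) and 19.8% (11.7 to 30.1) of the positive and 5.85% (2.96 to 10.2) and 8.46% (5.73 to 11.9) of the negative cells were S-phase positive. Gzmc-positive cells were 90 of 367 WT and 81 of 509 CD94-KO NK cells. In monocyte/macrophage cells, those with at least 5 UMIs of the complement gene C1qa had 264 and 167 CPM of the G2/M list, and those with none 95.6 and 103. The former were deeper, with medians of 16032.5 and 12401.5 against 9293 and 9563 UMIs. At 1000 UMIs the G2/M positive shares were 3.82% (1.92 to 6.73) against 1.20% (0.483 to 2.45) in the WT library. In the CD94-KO library they were 1.95% (0.895 to 3.67) against 1.43% (0.849 to 2.25), and the intervals overlapped in both. Splits were also made by Ifng and Gzma in NK, Arg1, Ly6c2 and Cxcl9 in monocyte/macrophage and Pdcd1 in T cells, and not all showed such gaps. NK cells with at least 2 Ifng UMIs had 524 and 436 CPM of the G2/M list, and those with none 535 and 419. The gene Gzmc and the other genes used for such splits were chosen after their values were seen.

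The other cell cycle genes, from lists made for this comparison, were likewise mostly lower in the CD94-KO library over all kept cells. Of 44 other G2/M genes, 40 were lower by size over all kept cells and none higher, where 13.2% of all genes were lower and 4.81% higher. In the collagen-gated cells none of these 44 passed the size rule, and no count was made without those cells. In NK cells 6 of 33 with enough UMIs were lower and 2 higher, in T cells 2 and 3 of 26, and in monocyte/macrophage cells 24 and 0 of 38. Of 32 other S-phase genes, 19 were lower over all kept cells, 8 of 29 in NK cells, 1 of 24 in T cells and 7 of 28 in monocyte/macrophage cells, and 0, 1, 1 and 0 were higher. In the collagen-gated cells 2 of the 32 were lower and none higher, where 4.1% of all genes were lower and 9.59% higher. Against the shares of all genes, 3.38% lower and 11.2% higher in NK, 6.82% and 9.13% in T, and 7.46% and 3.21% in monocyte/macrophage cells, the T cell counts are near those of all genes. In NK cells Ckap2l, a spindle protein gene, had 20 UMIs in the WT and 1 in the CD94-KO library (ratio 0.0430, 0.00104 to 0.269). The 2 genes of cyclin E, which drives entry into S phase, went opposite ways in NK cells: Ccne1 was at 6.987 and 2.003 CPM (0.287, 0.111 to 0.659) and Ccne2 at 4.08 and 8.26 (2.03, 1.05 to 4.10). The kinetochore gene Ndc80 was lower in NK cells (0.507) and higher in T cells (2.19), a contrast that was not tested. Ung, which removes uracil from DNA, was lower in NK cells (0.344, 0.171 to 0.656) and in monocyte/macrophage cells (0.377, 0.197 to 0.702).

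Genes that act before S phase had a more mixed pattern in NK cells. Myc, a factor that promotes growth and entry into the cycle, was at 14.0 CPM in WT and 31.8 in CD94-KO NK cells (2.28, 1.62 to 3.24), and the D-type cyclin gene Ccnd2 at 248 and 292 (1.18, 1.08 to 1.29), while its partner Cdk4 was at 75.1 and 55.8 (0.743, 0.618 to 0.893). Another list held CDK inhibitors and pocket proteins, which hold cells out of the cycle, and also Btg1 and Btg2, which are neither. All 10 of its genes with enough UMIs in NK cells had ratios above 1, among them Btg1 (1.276) and Btg2 (1.269). Of the 10, 1 was past 1.5-fold, the pocket protein gene Rbl2 at 40.8 and 66.1 CPM (1.62, 1.316 to 2.005). Over all genes in NK cells 6142 of 9469 had ratios above 1 and 11.2% were at least 1.5-fold higher, so 1 of 10 is near the share of all genes. Cdkn1a, the p21 inhibitor, was at 125.2 and 170.7 CPM in NK cells (1.36, 1.21 to 1.54), 227 and 222 in T cells (0.977, 0.871 to 1.10) and 1124 and 1311 in monocyte/macrophage cells (1.17, 1.14 to 1.19). With the bulk of NK genes set equal by TMM, 8 of the 10 ratios were above 1, and those of Cdkn2c and Rb1 below it. Over all kept cells the Myc ratio was 0.677, but collagen-gated cells held 609 of its 944 WT and 205 of its 739 CD94-KO UMIs. Its ratio was 0.736 (0.626 to 0.864) in those cells. In T cells it was 0.590 (0.293 to 1.13) and in monocyte/macrophage cells 1.075 (0.861 to 1.35). The part of the collagen-gated cells in the ratio over all kept cells was not tested. In T cells the pocket protein genes Rbl1 and Rb1 had ratios of 1.64 and 1.62. In monocyte/macrophage cells Cdk6 (59.7 and 38.6 CPM, 0.646) and Ccnd2 (92.7 and 64.7 CPM, 0.698) were lower.

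The 4 members used in both phases split between the patterns. Stmn1, which destabilises microtubules, was lower in NK (245 and 182 CPM, 0.744, 0.673 to 0.823) and monocyte/macrophage cells (31.2 and 19.6 CPM, 0.629, 0.551 to 0.718), and at 150 and 130 CPM in T cells (0.871, 0.751 to 1.01). Cks1b was lower in NK cells (0.697, 0.552 to 0.878) and monocyte/macrophage cells (0.586, 0.479 to 0.717) and higher in T cells, as given above. Over all kept cells the 4 had ratios of at most 0.840, each with an interval below 1. Hmgb2, a chromatin protein gene, had ratios of 0.916 (0.870 to 0.965) in NK and 1.02 (0.957 to 1.08) in T cells, and Cks2 had 1.13 (0.968 to 1.33) and 1.03 (0.880 to 1.20). In the subsets Hmgb2 had 1.41 (1.17 to 1.71) in conventional type 2 DCs and 0.783 (0.635 to 0.960) in Tregs. In monocyte/macrophage cells Cks2 and Hmgb2 were near 1, at 64.9 and 65.2 CPM (1.004, 0.925 to 1.09) and 294 and 292 CPM (0.992, 0.954 to 1.03). Hmgb2 alone gave 10691 of the 14875 WT and 13422 of the 18138 CD94-KO both-phase UMIs of gated immune cells, so a sum of the 4 follows that gene.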

How the data were processed

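CD45+ cells were sorted as live (7AAD) from subcutaneous tumours and sequenced with a Chromium 3′ method, per the labels' protocols, giving 1 WT and 1 CD94-KO library. The deposited tables hold counts of UMIs per gene and barcode made by the authors, and the file headers name Cell Ranger 5.0.0. The submitters' processing notes name Seurat 4.0 and mm10. The counting settings were not given in the sources used here.

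A cell was kept if it had 500 UMIs or more, 300 genes or more and less than 10% of UMIs from mitochondrial genes. The 4% of cells with the highest Scrublet score were removed (183 WT and 191 CD94-KO cells), since its automatic limit marked 1 and 0 cells. Classes come from gates on marker UMIs. UMIs were summed per class and scaled to CPM. Intervals are exact Poisson (CPM), conditional binomial (ratios) and Clopper-Pearson (shares) at 95%. List medians use log2(CPM + 5). Other depth filters, gates, doublet handling, scaling and thinning depths were tried. Analyses used scanpy 1.11.5 and scipy 1.17.1, and the scripts were tested on simulated data.

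The members and lists were chosen with earlier results of these data known. Named over all kept cells and in NK, T, monocyte/macrophage and collagen-gated cells are Mki67, Top2a, Cdk1, Ccnb1, Cenpf, Tyms, Rrm2, Pcna and Mcm5. In NK, T, monocyte/macrophage and all kept cells, up to 4 members per direction with the largest ratio and an interval without 1 are named too. Of the other lists, up to 3 genes per direction were picked by the same rule, and only some of those are named here. Other genes and the T and DC subsets were named after their values were seen.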

Additional observations from a re-analysis of the deposited data

Results flagged for a closer look

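The G2/M sum differed in direction between classes under the same comparison of libraries. The CD94-KO over WT ratio was 1.093 in T cells and 1.438 in conventional DCs, against 0.7853 in NK cells and 0.751 in monocyte/macrophage cells, with counting intervals on opposite sides of 1. With 1 library per genotype the difference between classes was not tested. In conventional DCs 1 cell with 135400 UMIs held 416 of the 904 CD94-KO G2/M UMIs, and without the top cell of each library the ratio was 0.978 (0.850 to 1.13). In T cells the interval included 1 without the top cell of each library (1.08, 0.992 to 1.18).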

How the results depend on the processing

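Of 88 recomputed values for all kept, NK, T and monocyte/macrophage cells, 65 stayed within the counting interval of the value reported, and no sum ratio whose interval left out 1 changed direction. In conventional DCs and mregDCs, leaving out the top cell of each library turned the G2/M ratios from 1.44 and 2.76 to 0.978 and 0.957, and the mregDC S-phase ratio from 1.53 to 0.863. Over all kept cells the S-phase ratio of 0.612 became 0.63 with TMM scaling, 0.692 with each cell weighed the same, 0.714 without collagen-gated cells, 0.748 in gated immune cells and 0.547 without Pcna and Dut. The G2/M ratio of 0.528 became 0.544, 0.666, 0.649, 0.77 and, without Cenpa, 0.476 under the same changes, and 0.464 without the 10 cells with most UMIs of the list in each library. In NK cells TMM scaling gave 0.786 for the S-phase and 0.722 for the G2/M ratio. In T cells the S-phase ratio was 0.796 without those 10 cells and 0.738 with a stricter gate (at least 5 marker UMIs and 4 times the next class). In monocyte/macrophage cells the S-phase ratio was 0.874 with each cell weighed the same, 0.895 without those 10 cells and 0.644 without Pcna and Dut, and the G2/M ratio was 0.819, 0.884 and, without Cenpa, 0.644, and 0.7 with doublets kept. Share differences near 0 changed sign: in NK cells the S-phase difference of 1.81 percentage points became -2.57 at 2000 UMIs and -0.189 at 3 or more UMIs of the list. In T cells the G2/M difference of 0.0709 became -1.1 and -0.186 under the same changes, -1.3 with the stricter gate and -0.883 without Pcna, Dut and Cenpa. With the stricter gate the monocyte/macrophage G2/M difference was 0.232. The G2/M share of monocyte/macrophage cells differed by -0.132 percentage points at 1000 UMIs and by -1.6 at 2000. The cause of these shifts was not tested. The changes that leave out collagen-gated cells, ungated cells, Pcna, Dut or Cenpa were added after the data were seen. No paired analysis was possible because each genotype has 1 library. Each library pools 5 mice, so spread between mice cannot be seen, and fewer cycling cells and less RNA per cycling cell cannot be told apart in the sums.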
